A study of Mus musculus with 3 samples.

Results

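The interferon genes of nephritic mouse kidney were described as a set of 53 genes: 7 interferon regulatory factors, 24 targets typical of type I interferon, 10 GTPases typical of interferon gamma and 12 other interferon-induced genes. Their rows were found on the array by gene symbol alone, with no use of the measured values. The genes themselves were chosen with earlier results of these data known. Of the 53, 42 had a row among the 10698 named genes, and 40 had a ratio on every array and could be tested with the 8449 features of the whole table. RNA of whole kidney from 3 BALB/c mice, taken 11 days after an injection of antibody against the glomerular basement membrane (anti-GBM), was labelled with Cy5. Each was hybridised to its own 2-colour array beside 1 pool of kidney RNA from 5 normal BALB/c mice, labelled with Cy3. The antibody injures the glomerular filter and gives a glomerulonephritis. The pool had no anti-GBM antibody named in its label, stood on all 3 arrays and counts as 1 control sample. No dye was swapped, so dye and disease cannot be told apart, and the spread between normal mice is not in the test.

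Interferons are secreted alarm proteins. Type I interferons, the alpha family and beta, are made by most cells that sense foreign or misplaced nucleic acid, while interferon gamma comes mainly from T and NK cells. Their receptors act through JAK kinases on transcription factors of the STAT family. The complex that holds Stat2 and Irf9 binds the interferon-stimulated response element, and STAT dimers bind a shorter palindromic site. Antiviral genes such as Isg15, the Ifit family, Mx and Oas are read as type I targets, and the guanylate-binding proteins and immunity-related GTPases as gamma targets, although many genes of both kinds answer to both interferons.

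All values are log ratios of nephritic kidney to the pool, centred on the median of each array, in the deposited unit. The base of the logarithm is not given in the sources used here: a ratio of 1 would stand for a 2-fold difference if the base is 2, for 2.72-fold with the natural logarithm and for 10-fold if it is 10. Positive is taken as higher in nephritic kidney, which is likely from the dye labels but not stated for the values. A ratio says nothing of the level of a gene, so the order of ratios below is not an order of abundance. The median over all tested features was -0.00806. Arrays gave a ratio for between 10998 and 11930 of 16281 rows, the others holding an exact 0, which was taken as missing. Among markers of kidney tubules, Umod and Kap were listed at 0 on every array. Of the 9 measured, 6 were lower and 1 was higher, against 22.3% and 20.8% of all features. Both dyes carried kidney RNA, so these ratios are no check of the tissue.

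Interferon genes were mostly higher in nephritic kidney. Of the 40 tested, 27 rose and 0 fell at a limma adjusted p of 0.05, and 33 were above 0 and 4 below 0 in all 3 mice. Over all features, 20.8% passed in the upward and 22.3% in the downward direction (43.1% in either), 33.3% were above 0 in every mouse and 35.4% below it. The median of the 40 mean ratios was 0.36, and the range ran from -0.20 for Irf2 to 1.26 for Ifi204. Among members below 0, 1 had an unadjusted p under 0.05. The calls rest on the spread that limma shares across features: an unmoderated one-sample test called 0 of the 40 members and 0 of all 8449 features (smallest adjusted p = 0.0541), with 21 members (52.5%) and 18% of all features higher at an unadjusted p under 0.05. With exact 0 kept as a ratio, 6 members were called higher and 0 lower, where 4.15% of all features were called higher and 3.3% lower (7.45% in either direction). Besides Ifit1, which changed sign, 21 members lost their call there, and 19 of those held no exact 0 in their own rows. Without mouse 1, 2 or 3, 26, 27 and 18 members were called higher, where 23.9%, 16% and 13% of all features were, and 2, 0 and 0 were called lower, where 25.8%, 15.5% and 13.1% were. In either direction these backgrounds came to 49.6%, 31.5% and 26.1%.

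**Figure D1:**
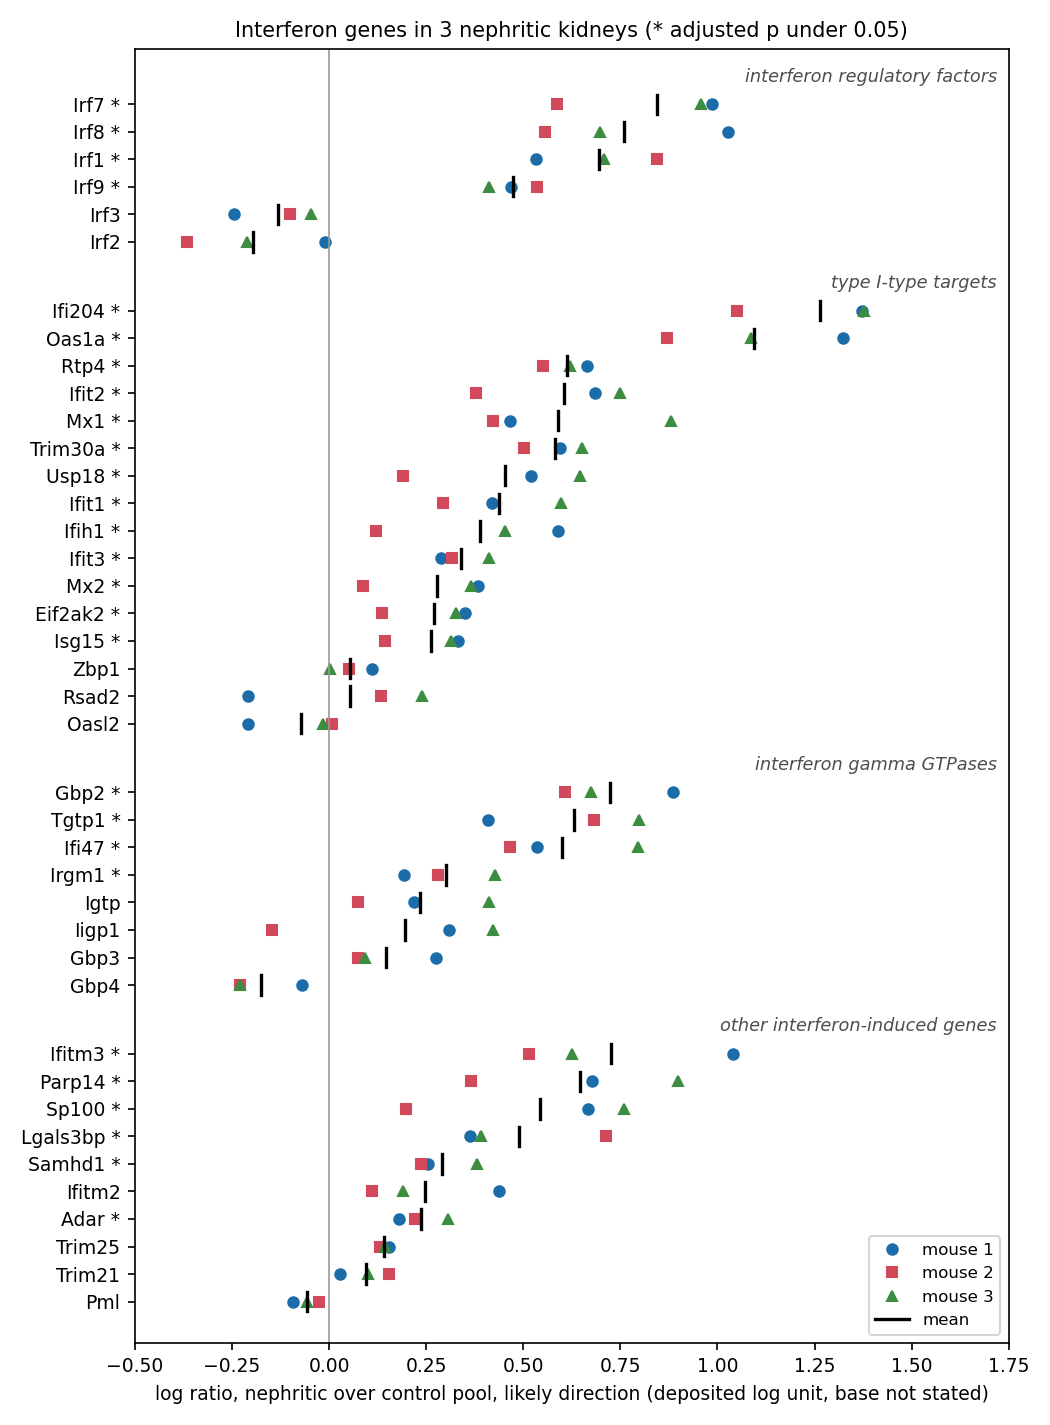
Log ratio (horizontal axis, deposited log unit) of each of the 40 tested interferon genes in mouse 1 (circles), mouse 2 (squares) and mouse 3 (triangles), with the mean of the 3 mice as a black bar and genes ordered by mean within 4 lists. Asterisks mark the 27 genes with a limma adjusted p under 0.05; Ifi204 at 1.26 and Oas1a at 1.09 lie farthest to the right and only 5 genes have a mean below 0.

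Among the interferon regulatory factors, the transcription factors that switch interferon genes on, 4 of 6 tested rose. Irf7, which drives the alpha interferon genes and is itself an interferon target, was at 0.99, 0.59 and 0.96 in mice 1, 2 and 3, a mean of 0.84 ± 0.22 (SD, n = 3; limma adjusted p = 0.000683). Irf8, a factor of macrophages and dendritic cells, was at 1.03, 0.56 and 0.70, a mean of 0.76 ± 0.24 (adjusted p = 0.00123). Mouse 2 was the lowest of the 3 for both, and every value lay above 0. Irf1, an early target of interferon gamma, was at 0.53, 0.85 and 0.71, a mean of 0.70 ± 0.16 (adjusted p = 0.000782). Irf9, the DNA-binding partner of Stat2, varied least, at 0.47, 0.54 and 0.41, a mean of 0.47 ± 0.0618 (adjusted p = 0.00185). In these 2 genes mouse 2 was the highest.

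The remaining factors did not pass. Irf3, which is present before infection and is switched on by phosphorylation, was at -0.24, -0.10 and -0.0478, with a mean of -0.13 (95% interval -0.30 to 0.0403, adjusted p = 0.185). Irf2, a repressor that competes with Irf1, was at -0.0108, -0.37 and -0.21, a mean of -0.20 (95% interval -0.40 to 0.00734, adjusted p = 0.107). Without mouse 1 Irf2 stood at -0.29 and passed as lower (adjusted p = 0.0127). Irf5 was listed at 0 on every array. With exact 0 kept, Irf1, Irf7 and Irf8 lost their calls at nearly the same values (adjusted p = 0.0635, 0.0743 and 0.0898), while Irf9 kept its call.

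Promoter sequences of RefSeq (build GRCm38.p6) were matched by symbol for 43 of the 53 genes, as windows from 250 bases before to 50 after each start, and searched for 2 motifs. The response element letters, TTTC, any 2 bases and TTTC again, are the core of the interferon-stimulated response element and were sought on both strands. The STAT dimer letters, TTCNNNGAA, read alike on both strands, and no overlap between motifs was removed. The response element letters stood in at least 1 window of 22 of the 43 genes (51.2%), against 3.99% of all 27025 genes of the table, and the STAT letters in 16 (37.2%) against 9.55%. By list, the response element letters were found in 7 of 8 GTPases, 11 of 17 type I-type targets, 3 of 11 other genes and 1 of 7 regulatory factors. TTCNNNGAA was found in 4 of the GTPases, 5 of the type I-type targets, 4 of the other genes and 3 of the factors. The response element letters stood in 11 of 21 genes that rose and in 6 of 10 that were tested and did not pass, and the STAT letters in 9 and 2 of these. A match is a description of the sequence and not evidence of binding.

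To show what the members share and where response and letters part, the 150 bases before the start are printed 5′ to 3′ on the strand of the gene for 3 genes that rose with different letters (Irf1, Oas1a, Isg15), for the GTPase with the highest mean ratio, Gbp2, and for 2 genes that hold the element and did not pass (Gbp3, Rsad2). Capitals mark the response element letters, their reverse complement or the STAT letters, and overlapping matches run together.
Irf1, chr11:53769864-53770013, plus strand: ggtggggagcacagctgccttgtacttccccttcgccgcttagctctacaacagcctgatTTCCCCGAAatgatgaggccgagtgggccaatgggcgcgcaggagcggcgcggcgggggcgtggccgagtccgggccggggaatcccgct
Oas1a, chr5:120907526-120907675, minus strand: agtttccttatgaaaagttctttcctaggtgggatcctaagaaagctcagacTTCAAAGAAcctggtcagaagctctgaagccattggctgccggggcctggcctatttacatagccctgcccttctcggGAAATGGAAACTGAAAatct
Isg15, chr4:156200819-156200968, minus strand: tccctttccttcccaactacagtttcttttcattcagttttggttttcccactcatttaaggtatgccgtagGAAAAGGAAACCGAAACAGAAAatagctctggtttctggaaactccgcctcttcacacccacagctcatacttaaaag
Gbp2, chr3:142620513-142620662, plus strand: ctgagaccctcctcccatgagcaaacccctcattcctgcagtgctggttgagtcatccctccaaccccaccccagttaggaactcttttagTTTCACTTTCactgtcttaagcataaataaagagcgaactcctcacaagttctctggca
Gbp3, chr3:142559894-142560043, plus strand: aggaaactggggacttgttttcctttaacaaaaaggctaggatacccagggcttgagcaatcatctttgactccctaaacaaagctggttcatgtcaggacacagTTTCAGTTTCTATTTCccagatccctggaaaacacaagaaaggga
Rsad2, chr12:26456453-26456602, minus strand: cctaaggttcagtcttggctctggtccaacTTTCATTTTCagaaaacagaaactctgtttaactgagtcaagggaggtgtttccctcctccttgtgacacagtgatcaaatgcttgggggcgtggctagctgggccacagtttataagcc

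In Irf1 the STAT letters began 90 bases before the start and no response element letters were present in the stretch. Oas1a held both kinds, with the STAT letters from base 98 and overlapping elements from bases 20 and 14 before the start. Isg15 held 3 overlapping elements, Gbp3 held 2 and Gbp2 and Rsad2 held 1 each.

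Targets typical of type I interferon rose in 13 of the 16 tested, and 0 fell (0 at an unadjusted p under 0.05). Their median was 0.41, with list medians of 0.44, 0.24 and 0.53 in mice 1, 2 and 3. Ifi204, a nuclear DNA-binding protein of the Ifi200 family, was at 1.37, 1.05 and 1.38, a mean of 1.26 ± 0.19 (SD, n = 3; limma adjusted p = 0.000111). Oas1a, an enzyme that makes the second messenger that activates RNase L, was at 1.32, 0.87 and 1.09, a mean of 1.09 ± 0.23 (adjusted p = 0.000258). Both stood clear of the next gene of the list, Rtp4. Each of these genes has close relatives in tandem in the mouse, and the array rows cannot be assigned to 1 copy.

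The middle of the list held genes of mixed function. Rtp4, an interferon-induced chaperone of receptors, was at 0.66, 0.55 and 0.62, with a mean of 0.61 ± 0.0563 (SD, n = 3). Trim30a, a TRIM protein that dampens Toll-like receptor signalling, was at 0.59, 0.50 and 0.65, with a mean of 0.58 ± 0.0748. In both, the spread between mice was small beside the mean. Mx1, a gene of the dynamin-like GTPases, was at 0.47, 0.42 and 0.88, with a mean of 0.59 ± 0.25. Usp18, the protease that removes Isg15 from proteins and brakes the type I receptor, was at 0.52, 0.19 and 0.65, with a mean of 0.45 ± 0.24. Mouse 3 was the highest in both, for Mx1 as a mean of rows. The 2 rows of Mx1 ordered the mice differently, at 0.55, 0.28 and 0.53 and at 0.38, 0.56 and 1.23.

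The Ifit genes, whose proteins hold back viral RNA from translation, rose with their fully measured rows. Ifit2 was at 0.69, 0.38 and 0.75 in mice 1, 2 and 3, a mean of 0.60 ± 0.20 (SD, n = 3; limma adjusted p = 0.00211). Ifit1 was at 0.42, 0.29 and 0.60, a mean of 0.44 ± 0.15 (adjusted p = 0.00527). Ifit3 was at 0.29, 0.32 and 0.41, a mean of 0.34 ± 0.0646 (adjusted p = 0.00740). Other rows of these genes disagreed in part: a second Ifit1 row, with a ratio in mice 1 and 3 alone, stood at -1.17 and -0.80, and a second Ifit2 row at 0.32 and 0.0834 in mice 2 and 3. Where rows were averaged before a ratio on 3 arrays was asked for, the mean of Ifit1 turned to -0.0603 and was no longer called (adjusted p = 0.726). The upward call of Ifit1 therefore rests on 1 of its 2 rows. Ifit3 has a near-identical neighbouring copy, so its ratio may belong to both.

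Isg15, the ubiquitin-like protein of the pathway, gave a smaller mean ratio than most of its list, 0.26 ± 0.10 (SD, n = 3), with 0.33, 0.14 and 0.31 in mice 1, 2 and 3. This mean joins rows that went apart. The first stood at 0.61, 0.48 and 0.76 and the second at 0.0535, -0.20 and -0.13, so no value of the 2 rows overlapped. The RNA sensor Ifih1 (MDA5) was at 0.59, 0.12 and 0.45, with a mean of 0.39 ± 0.24, and the kinase Eif2ak2 (PKR), which stops translation on double-stranded RNA, at 0.35, 0.14 and 0.33, with a mean of 0.27 ± 0.12. One more Eif2ak2 row had a ratio in mouse 3 alone, at -0.83. Eif2ak2 lost its call where rows were averaged first (0.14, limma adjusted p = 0.260) and with 1 row per gene (0.19, adjusted p = 0.0703). Mx2 was at 0.38, 0.0869 and 0.37, with a mean of 0.28 ± 0.17. In these 3 genes mouse 2 lay below the other mice.

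Without mouse 3, the type I-type targets called higher numbered 7, which is 1.86 times fewer. The 6 that no longer passed were Isg15 (0.24, limma adjusted p = 0.182), Usp18 (0.36, adjusted p = 0.0640), Ifit3 (0.30, adjusted p = 0.0831), Ifih1 (0.36, adjusted p = 0.0823), Mx2 (0.24, adjusted p = 0.203) and Eif2ak2 (0.24, adjusted p = 0.174). Mx2 also lost its call without mouse 1, at 0.23 (adjusted p = 0.0540).

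The type I-type list also had members that did not pass. Rsad2 (viperin), an iron-sulfur enzyme that makes a chain-terminating nucleotide, was at -0.21, 0.13 and 0.24 in mice 1, 2 and 3, and the mice differed in sign (mean 0.0542, 95% interval -0.18 to 0.29). Oasl2, an Oas relative, was at -0.21, 0.00722 and -0.0166 (mean -0.0728, 95% interval -0.25 to 0.10). Its 2 rows were opposite in sign in each mouse, at 0.0222, -0.13 and -0.26 and at -0.44, 0.15 and 0.23. Zbp1, a sensor of Z-form nucleic acid that can start necroptosis, was at 0.11, 0.0522 and 0.00253 (mean 0.0550, 95% interval -0.10 to 0.21). Each interval ends below the means of Ifi204 and Oas1a. The Rsad2 interval held the means of the called genes Isg15, Eif2ak2 and Mx2, while those of Oasl2 and Zbp1 ended below them. Ifi35, Ifi44, Ddx58, Oas2, Oas3, Oasl1, Bst2 and Xaf1 had no row under their symbol and were not analysed here.

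GTPases typical of interferon gamma rose in 4 of 8 tested, and 0 fell, with 1 below 0 at an unadjusted p under 0.05. Gbp2, a guanylate-binding protein that attacks the vacuoles of intracellular microbes, was at 0.88, 0.61 and 0.67, a mean of 0.72 ± 0.14 (SD, n = 3; limma adjusted p = 0.000601). Tgtp1, an immunity-related GTPase, was at 0.41, 0.68 and 0.80, a mean of 0.63 ± 0.20 (adjusted p = 0.00182). Ifi47, of the same family, was at 0.54, 0.47 and 0.80, a mean of 0.60 ± 0.17 (adjusted p = 0.00173). Averaged over rows, all values of these 3 genes lay at 0.41 or above, though a Tgtp1 row stood at 0.16 in mouse 1. Irgm1, a regulator of the other GTPases and of autophagy, was lower, at 0.19, 0.28 and 0.43, a mean of 0.30 ± 0.12 (adjusted p = 0.0172). Its call was lost without mouse 2 (0.31, adjusted p = 0.0522) and without mouse 3 (0.24, adjusted p = 0.173). The rows of Tgtp1 had means of 0.80 and 0.46. Tgtp1 has a near-identical neighbouring copy, so its ratio may belong to both.

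The other GTPases of the list did not pass. Igtp (Irgm3) was at 0.22, 0.0733 and 0.41, with a mean of 0.23 (95% interval 0.0356 to 0.43, limma adjusted p = 0.0603). Iigp1, which disrupts the vacuoles of parasites, was at 0.31, -0.15 and 0.42, with a mean of 0.19 (95% interval -0.0768 to 0.47, adjusted p = 0.211). Mouse 2 was the lowest in both, and without it both were called higher, at 0.32 (adjusted p = 0.0443) and 0.37 (adjusted p = 0.0219). Gbp3 was at 0.28, 0.0737 and 0.0914, with a mean of 0.15 (adjusted p = 0.151). Gbp4 was below 0 in every mouse, at -0.0706, -0.23 and -0.23, with a mean of -0.18 (adjusted p = 0.0856), and without mouse 1 it was called lower at -0.23 (adjusted p = 0.0276). Gbp2, Gbp3 and Gbp4 lie in the same gene family, yet all values of Gbp2 were above all values of the other 2. Gbp5 and Gbp7 had no row and were not analysed here.

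Set side by side, the type I-type targets had 13 of 16 genes called and a median of 0.41, and the interferon gamma GTPases 4 of 8 and a median of 0.27. The difference between the medians was 0.15 over mean ratios, and between the list medians of a mouse it was 0.15, 0.0645 and 0.10 in mice 1, 2 and 3. Single genes ran from -0.0728 to 1.26 in the first list and from -0.18 to 0.72 in the second. No test was made between lists, because their genes were chosen with results of these data known. Only the 2 highest type I-type genes stood above the highest GTPase. The difference fell to 0.0964 when all members outside the factors and GTPases stood in for the type I-type targets, to 0.0964 when a ratio on 2 arrays sufficed, to 0.0937 without mouse 1 and to 0.0855 with exact 0 kept. The last setting called 4 type I-type targets (Ifi204, Ifit2, Rtp4 and Trim30a) and 0 GTPases, with Gbp2 at 0.74 (adjusted p = 0.0558).

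**Figure D2:**
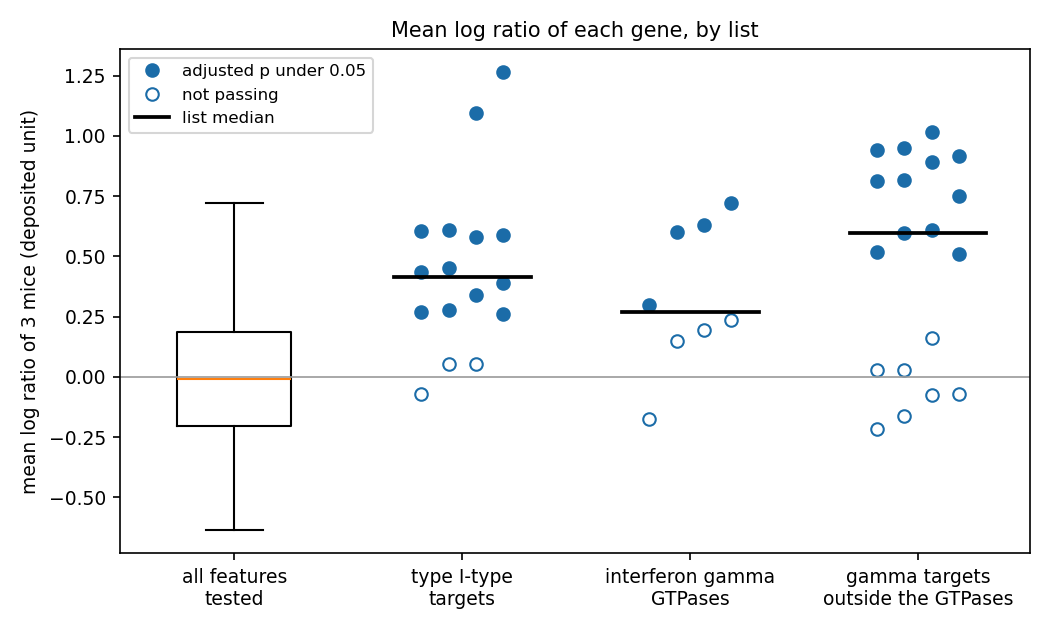
Mean log ratio of 3 mice (vertical axis, deposited log unit) for each gene of 3 lists, filled where the limma adjusted p was under 0.05, with the list median as a bar, beside a box for all 8449 features (quartiles, with whiskers at the 5 and 95 percentiles). The medians were 0.41 for type I-type targets, 0.27 for interferon gamma GTPases and 0.60 for gamma targets outside the GTPases, and the lists overlap.

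Among the other interferon-induced genes, 6 of 10 tested rose and 0 fell (0 at an unadjusted p under 0.05). Ifitm3, a membrane protein that blocks virus entry in endosomes, was at 1.04, 0.51 and 0.62 in mice 1, 2 and 3, a mean of 0.73 ± 0.28 (SD, n = 3; limma adjusted p = 0.00216). Its relative Ifitm2 was at 0.44, 0.11 and 0.19, with a mean of 0.25, and did not pass (adjusted p = 0.0517); without centring of the arrays it was called (0.26, adjusted p = 0.0424). In both genes mouse 1 was the highest and mouse 2 the lowest. Parp14, an ADP-ribosyltransferase, was at 0.68, 0.36 and 0.90, a mean of 0.65 ± 0.27 (adjusted p = 0.00320). Sp100, a protein of nuclear bodies, was at 0.67, 0.20 and 0.76, a mean of 0.54 ± 0.30 (adjusted p = 0.00896).

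Pml, the organiser of the same nuclear bodies, stood at -0.0918, -0.0258 and -0.0566, with a mean of -0.0580 (95% interval -0.21 to 0.0982). Its interval ended below the lowest of the Sp100 values. Lgals3bp, a secreted glycoprotein that binds galectins, went the other way among mice, at 0.36, 0.71 and 0.39 with the highest value in mouse 2, a mean of 0.49 ± 0.19 (SD, n = 3; limma adjusted p = 0.00495). A second row of it stood at 0.41 and -0.19 in mice 1 and 3. Samhd1, which depletes the building blocks of DNA, was at 0.25, 0.24 and 0.38, a mean of 0.29 ± 0.0783 (adjusted p = 0.0148). The RNA-editing enzyme Adar was at 0.18, 0.22 and 0.31, a mean of 0.24 ± 0.0650 (adjusted p = 0.0297).

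Samhd1 and Adar lost their calls without mouse 3 (0.25 and 0.20, limma adjusted p = 0.155 and 0.246), and Adar also without mouse 2 (0.24, adjusted p = 0.0919). Samhd1 also lost it with 1 row per gene (0.21, adjusted p = 0.0612). The ubiquitin ligases Trim25 and Trim21 did not pass, with means of 0.14 and 0.0943 (adjusted p = 0.120 and 0.298). The nuclease Isg20 had a ratio in mouse 3 alone, at 0.0498, and Ifitm1 had no row and was not analysed here.

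The other genes of the pathway were taken from lists by role. Of 43 tested, 24 were higher and 2 were lower, and the 2 were ligands. The shares over all features were 20.8% higher and 22.3% lower (43.1% in either direction). They are the background for each pathway list below as well. The single measured row of interferon gamma, Ifng, stood at -1.27, -0.84 and -0.67 in mice 1, 2 and 3, a mean of -0.93 ± 0.31 (SD, n = 3; limma adjusted p = 0.00107). The second Ifng row was listed at 0 on all arrays. Ifna6 was at -0.28, -1.08 and -0.55, a mean of -0.64 ± 0.41 (adjusted p = 0.0118), also with a second row at 0 throughout. Every value of these 2 genes lay below 0, while Ifna9 was at 0.0306, -0.29 and -0.18 and did not pass (adjusted p = 0.194). Without mouse 1, Ifna9 was called lower at -0.23 (adjusted p = 0.0281). Of the 11 ligands with a row, 8 had no ratio on all arrays, and Ifnb1 was listed at 0 on each. With exact 0 kept, Ifng moved to -0.46 and Ifna6 to -0.31, with no call.

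Receptor genes rose in 3 of 5, and 0 fell (0 at an unadjusted p under 0.05). Ifngr1, the ligand-binding chain, was at 0.81, 0.88 and 0.90 in mice 1, 2 and 3, with a mean of 0.86 ± 0.0444 (SD, n = 3; limma adjusted p = 0.000160), and its rows gave means of 0.88 and 0.85. Ifngr2, the signalling chain, was at 0.80, 0.56 and 0.52, with a mean of 0.63 ± 0.15 (adjusted p = 0.00114). Each of these values was above every value of the type I receptor. Ifnar2 was at 0.33, 0.17 and 0.29, with a mean of 0.26 ± 0.0847 (adjusted p = 0.0230), a call lost without mouse 3 (0.25, adjusted p = 0.160) and with 1 row per gene (0.21, adjusted p = 0.0894). Ifnar1 was at -0.0248, 0.46 and 0.39, with a mean of 0.28 (adjusted p = 0.0715), and was called without mouse 1 (0.43, adjusted p = 0.00113). The difference between receptor genes was not tested. Il10rb, a chain shared by the lambda interferon and interleukin-10 receptors, did not pass, at 0.14 (adjusted p = 0.195).

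Of 9 kinases, STATs and brakes, 4 were higher and 0 lower (0 at an unadjusted p under 0.05 in limma). Stat2 was at 0.40, 0.22 and 0.40, with a mean of 0.34 ± 0.10 (SD, n = 3; adjusted p = 0.00953), and the kinase Tyk2 at 0.17, 0.20 and 0.23, with a mean of 0.20 ± 0.0275 (adjusted p = 0.0463). The phosphatases Ptpn2 and Ptpn11 had means of 0.38 and 0.24 (adjusted p = 0.00407 and 0.0266). The kinases Jak1 and Jak2 had means of 0.10 and -0.12, the feedback inhibitors Socs1 and Socs3 of -0.16 and -0.20 and the STAT inhibitor Pias1 of -0.0174, none of them passing. The rows of Socs1 disagreed, with means of 0.11 and -0.44. Without mouse 3 Tyk2 (0.19), Stat2 (0.31) and Ptpn11 (0.26) lost their calls, and without mouse 2 Tyk2 (0.20) and Ptpn11 (0.21). With 1 row per gene Tyk2 (0.16, adjusted p = 0.127) and Ptpn11 (0.22, adjusted p = 0.0501) were not called, nor was Tyk2 with ratios on 2 arrays (adjusted p = 0.0567) or rows averaged first (adjusted p = 0.0514). Without mouse 1 Socs3 was called lower at -0.30 (adjusted p = 0.0120).

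**Figure D3:**
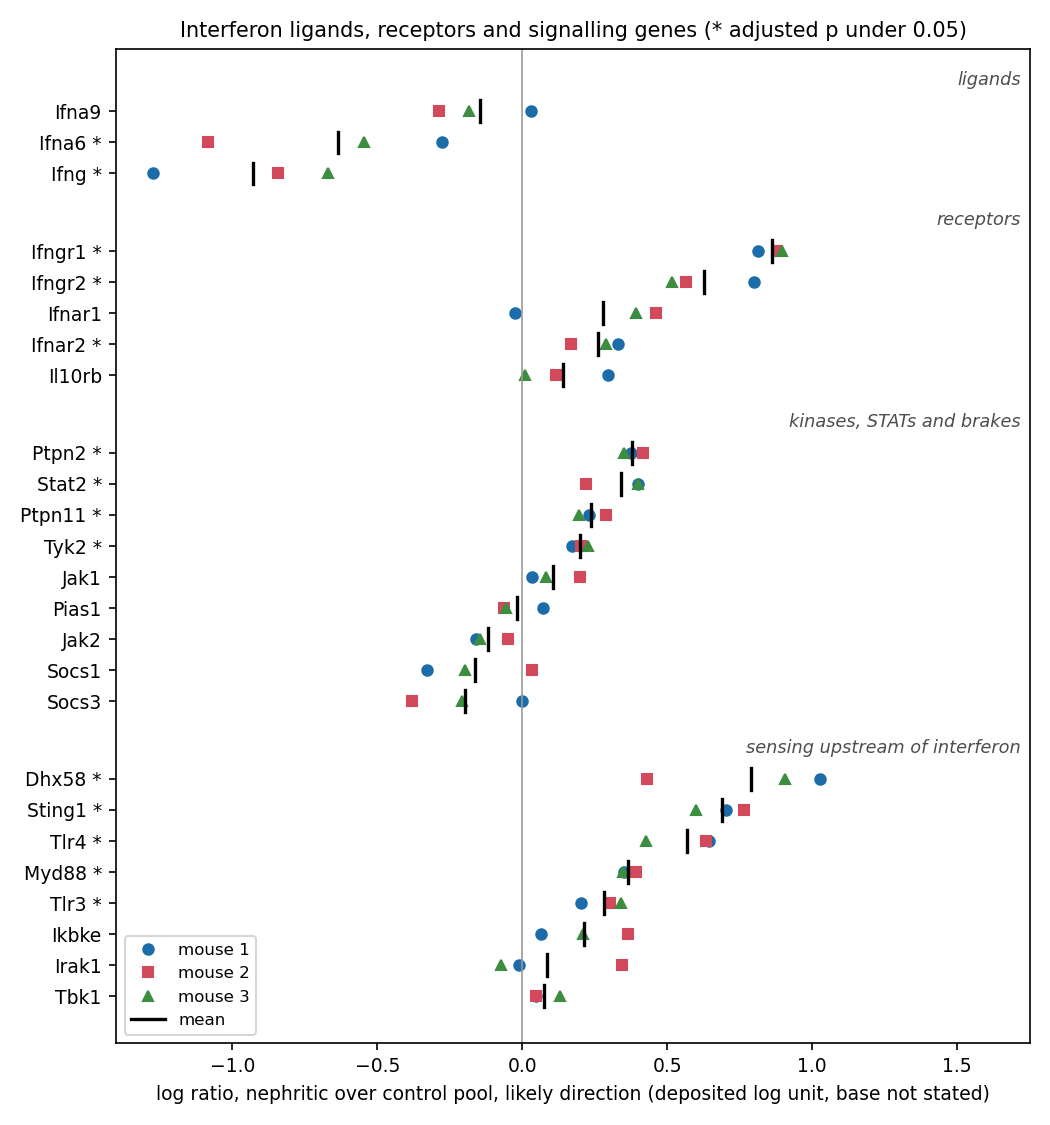
Log ratio (horizontal axis, deposited log unit) of 25 interferon ligands, receptors, signalling genes and upstream sensors in mouse 1 (circles), mouse 2 (squares) and mouse 3 (triangles), with the mean as a black bar and an asterisk where the limma adjusted p was under 0.05. Ifng and Ifna6 lie below 0 in all mice, while Ifngr1 and Ifngr2 lie between 0.52 and 0.90.

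Among 8 measured genes of nucleic acid and pattern sensing upstream of interferon, 5 rose and 0 fell (0 at an unadjusted p under 0.05 in limma). Dhx58 (LGP2), an RNA helicase that is itself an interferon target, was at 1.03, 0.43 and 0.90, with a mean of 0.79 ± 0.31 (SD, n = 3; adjusted p = 0.00217). Sting1, the membrane adaptor of cytosolic DNA sensing, was at 0.70, 0.76 and 0.60, with a mean of 0.69 ± 0.0842 (adjusted p = 0.000448). The endotoxin receptor Tlr4 and the adaptor Myd88 had means of 0.57 and 0.36 (adjusted p = 0.00134 and 0.00470). The rows of Tlr4 disagreed, with means of 0.97 and 0.17, the second at -0.14 in mouse 3. Mouse 2 was low for Dhx58 alone among these 4 genes.

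Gamma targets outside the GTPases rose in 12 of 19, with 0 lower and a median of 0.60; Cd274 (PD-L1), at -0.22, was the 1 gene below 0 with an unadjusted p under 0.05 in limma. The 4 with the smallest p, the class I molecules H2-K1 and H2-D1 and the immunoproteasome subunits Psmb8 and Psmb10, had means between 0.75 and 1.02. A second H2-K1 row, with a ratio in mice 2 and 3 alone, stood at 0.17 and 0.0393. The T cell chemokines that share 1 receptor, chosen after their values were seen, differed: Cxcl10 was at 0.50, 0.41 and 0.62, with a mean of 0.51 ± 0.11 (SD, n = 3; adjusted p = 0.00185), and Cxcl11 had a mean of 0.61 ± 0.16 (adjusted p = 0.00133) from rows at 0.98 and 0.24. Cxcl9, which depends most on interferon gamma, was at 0.0367, -0.31 and 0.36, with a mean of 0.0284 (adjusted p = 0.869) and a mean of -0.14 without mouse 3.

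Mouse 2 gave the lowest of the 3 ratios for most interferon genes. This held for 26 of the 40 tested members (65%), against 38.8% of all features, and for 20 of the 27 that rose (74.1%), against 36.4% of all features called higher. It held for 12 of 16 type I-type targets, 5 of 8 GTPases and 17 of 19 gamma targets outside the GTPases, but for 1 of 5 receptors and 1 of 8 upstream sensors. Among marker lists it held for 8 of 12 macrophage and dendritic cell and 5 of 8 T and NK cell markers. It also held for 5 of 8 neutrophil, 4 of 6 glomerular and 2 of 3 B and plasma cell markers. Tubule markers gave 4 of 9 and plasmacytoid dendritic cell markers 2 of 6. The pattern was thus not particular to interferon genes. The median of the 27 called members was 0.53, 0.42 and 0.65 in mice 1, 2 and 3, while that of all 1755 features called higher was 0.44, 0.45 and 0.44. With arrays scaled to the same spread the counts were 27 of 40 members and 37% of all features. This comparison of single mice was chosen after the values were seen, and with 1 array per mouse it has no test.

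**Figure D4:**
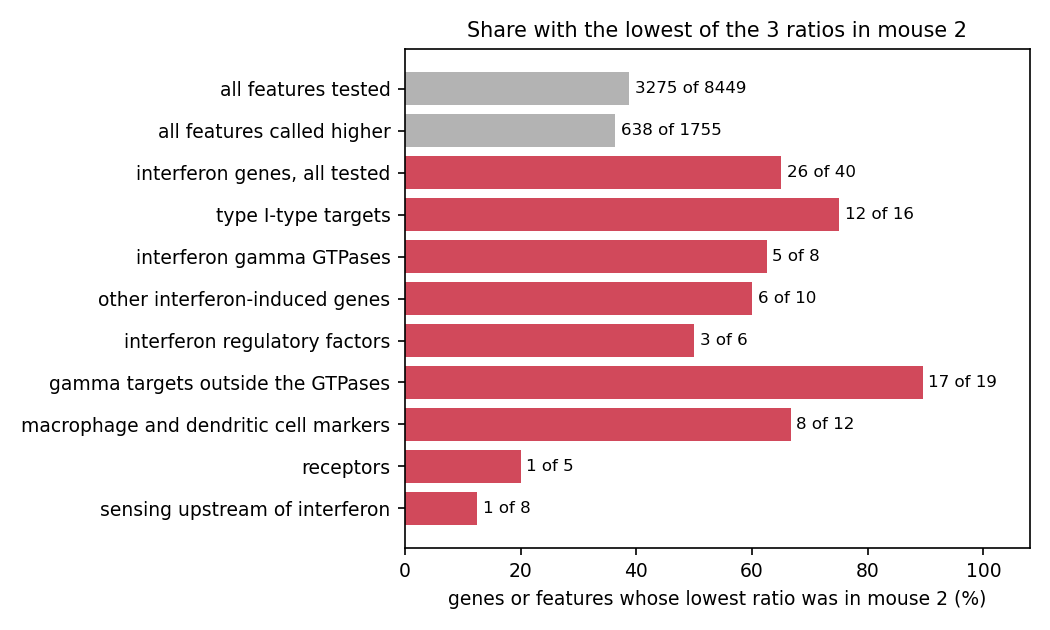
Share of genes or features (horizontal axis, percent) whose lowest of 3 log ratios was in mouse 2, with counts printed beside the bars; grey bars are all tested features and all features called higher. The share was 65% for the interferon genes and 38.8% for all features, with the gamma targets outside the GTPases highest at 17 of 19. For macrophage and dendritic cell markers it was 8 of 12.

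Markers of macrophages and dendritic cells were higher beside the interferon genes, and those of T and NK cells in part. Of 12 measured markers of the first kind, 12 rose, with list medians of 1.00, 0.79 and 0.88 in mice 1, 2 and 3; Lyz2 was at 1.69, the leukocyte antigen Ptprc at 1.33 and C1qa at 1.22, and Cd14 was listed at 0 on all arrays. Of 8 measured T and NK cell markers, 4 rose, with list medians of 0.43, 0.17 and 0.38, led by Cd8a at 0.99 and Thy1 at 0.82. Cd5 and Cd4 were called at 0.26 and 0.24, and Cd2, Klrd1, Gzma and Il2rb did not pass. Il2rb was below 0 in every mouse, with a mean of -0.24 (limma unadjusted p = 0.0478, adjusted p = 0.0935). The T cell receptor chain Cd3e and the granule genes Nkg7 and Gzmb were listed at 0 on all arrays. The list medians of both kinds were lowest in mouse 2. Plasmacytoid dendritic cell markers rose in 3 of 6, which were Pacsin1 and the members Irf7 and Irf8. B and plasma cell markers rose in 1 of 3, with Cd79a listed at 0, and neutrophil markers in 2 of 8 with 3 lower. Over all features, 20.8% were higher and 22.3% lower, so the B and plasma cell and neutrophil counts are not read as a result about those cells. No glomerular marker of 6 rose and 1 fell, and this count is likewise not read as a result. In whole kidney, more cells of a type and more RNA per cell cannot be told apart, and the part of these cells in the interferon ratios was not tested.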

How the data were processed

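Per the labels, RNA of 3 nephritic mice (Cy5) and of 1 pool from 5 normal mice (Cy3) was compared on 3 two-colour arrays. The deposited values are log ratios, 1 column per array; for their scanner, normalization, log base and direction, the sources used here give nothing. Exact 0 was taken as missing. Symbols came from the platform annotation, updated through gene identifiers in RefSeq (GRCm38.p6): 13738 rows had 1 symbol, 52 several and 2491 none. Of the 54 rows of members, 1 was 0 throughout. Arrays were centred on their medians (0.0151, 0.0160 and 0.0171), rows measured on all arrays were averaged per gene, and 8449 features were tested against 0 with limma 3.58.1 in R 4.3.3 (lmFit, eBayes, two-sided, Benjamini-Hochberg over all features, threshold 0.05), after a check on simulated data. SD is over mice, and 95% intervals use limma's moderated error. The labels name a different mouse per array, and the number of arrays limits the precision. Each mouse's values were printed for called factors and GTPases, for the 12 type I-type and other members with the smallest p and for members below 0 or of mixed sign, with a few further members beside them; of the pathway lists every ligand, receptor and signalling gene was named, and the 4 with the smallest p of the others. Members and lists were chosen with earlier results of these data known. The alternatives were no centring, scaling, 1 row per gene, ratios on 2 arrays, exact 0 kept, a robust prior, an unmoderated test, dropping the 20% of features that varied least between mice, fits on 2 of the mice and, added after the values were seen, averaging rows before asking for 3 arrays.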

Additional observations from a re-analysis of the deposited data

How the results depend on the processing

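The 27 higher calls became 29 without centring, 27 with scaling or a robust prior, 25 with 1 row per gene, 26 with ratios on 2 arrays, 25 with rows averaged first and 23 of 32 members without the lowest SDs. Without each mouse they ran from 18 to 27, lower calls from 0 to 2, type I-type calls from 7 to 13, factors 4 throughout, GTPases from 3 to 5 and pathway calls from 21 to 30. The list difference ran from 0.0937 to 0.17 in those settings, and was 0.0855 with exact 0 kept, 0.0964 with ratios on 2 arrays, with rows averaged first and with the wider list. With exact 0 kept, 6 members (5 of the 27, with Trim25), 4 type I-type targets, 0 GTPases, 1 factor and 8 pathway genes were called; an unmoderated one-sample test called 0 members, 0 of each list and 0 pathway genes, with 21 members and 3060 of 8449 features (either direction) at an unadjusted p under 0.05. Signs turned for Ifit1 (-0.0957 with exact 0 kept, -0.0603 with ratios on 2 arrays or rows averaged first) and Rsad2 (-0.0379 without mouse 3, up to 0.19 without mouse 1). They also turned for Socs1 (0.11 with 1 row per gene), Pias1 (0.00625 and 0.00288 without mouse 2 or 3, -0.0612 without mouse 1) and Cxcl9 (-0.00698 with ratios on 2 arrays or rows averaged first, -0.14 without mouse 3, up to 0.20 without mouse 2). The choice of rows turned Ifit1, Socs1 and, with ratios on 2 arrays or rows averaged first, Cxcl9. For the other turns the cause was not tested. No paired analysis was possible because the study has 1 group and a single control pool. Signal over background was not analysed here.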
